A study of Homo sapiens with 9 samples.

Results

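The comparison set 3 arrays labelled siZNF326 against 3 arrays labelled siDBC1, 6 of the 9 arrays of the series, over all 22011 probe sets. The 6 arrays were chosen by their titles, and no measured value entered the choice. All arrays held total RNA of HEK293 cells, an established human embryonic kidney line, 48 h after transfection with a Stealth siRNA, a chemically modified short duplex. One group received siRNA against ZNF326, also called ZIRD, and the other received siRNA against DBC1, the protein encoded by CCAR2. The 3 remaining arrays were from cells given a control siRNA (siCTR). They are shown as background, and they do not enter the differences. The siRNA names, the cell line and the time are those of the labels, which describe 3 independent experiments. How many siRNA sequences were used per gene is not given in the sources used here, so an effect of the targeted gene and an effect of its siRNA sequence cannot be told apart.

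DBC1 and ZNF326 are nuclear proteins that associate in the DBIRD complex, which binds RNA polymerase II and messenger ribonucleoprotein particles and affects elongation and the splicing of some exons. DBC1 is also known as an inhibitor of the deacetylase SIRT1, whose substrates include p53, and ZNF326 is a zinc finger protein of the nuclear matrix. A difference between the 2 siRNAs describes how cells given one siRNA depart from cells given the other, which a comparison of each with the control does not give directly.

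Array medians lay between 5.58 and 5.90 on the log2 scale in the 6 arrays, and correlations between arrays were 0.960 to 0.981 within siDBC1, 0.981 to 0.988 within siZNF326 and 0.953 to 0.988 between the siRNAs, over probe sets. Replicates of one siRNA were thus no closer to each other than some were to arrays of the other siRNA. One axis held 53% of the variance within groups, with siDBC1 replicate 2 at one end and siDBC1 replicate 3 and siZNF326 replicate 1 at the other. Values without one or all of these arrays, or with the axis as a covariate, are given beside the gene lists and the calls. Leaving out the 3 together and the covariate were chosen after seeing the data.

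Only 2 of 22011 probe sets (0.00909%) separated the siRNAs at an adjusted p below 0.05 (limma, Benjamini-Hochberg over all probe sets). CCAR2 was higher in siZNF326 and GET3, the cytosolic ATPase that hands tail-anchored membrane proteins to the endoplasmic reticulum, was lower. The median absolute difference was 0.14 on the log2 scale and its 99th percentile 0.91, against a median standard error of 0.16. Each direction held 1 probe set (0.00454%), and counted by gene the 2 were 0.0141% of 14232. An unadjusted p below 0.05 was reached by 1609 probe sets (7.31%). In 2079 probe sets (9.45%) the arrays of the siRNAs did not overlap, which is called separated below. With so few arrays per group, arrays can separate where nothing differs, so separated describes the values and is not a call. Of these, 1146 (5.21%) were higher in siZNF326 and 933 (4.24%) were lower, and 61 of the former and 18 of the latter differed at least 2-fold.

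**Figure D1:**
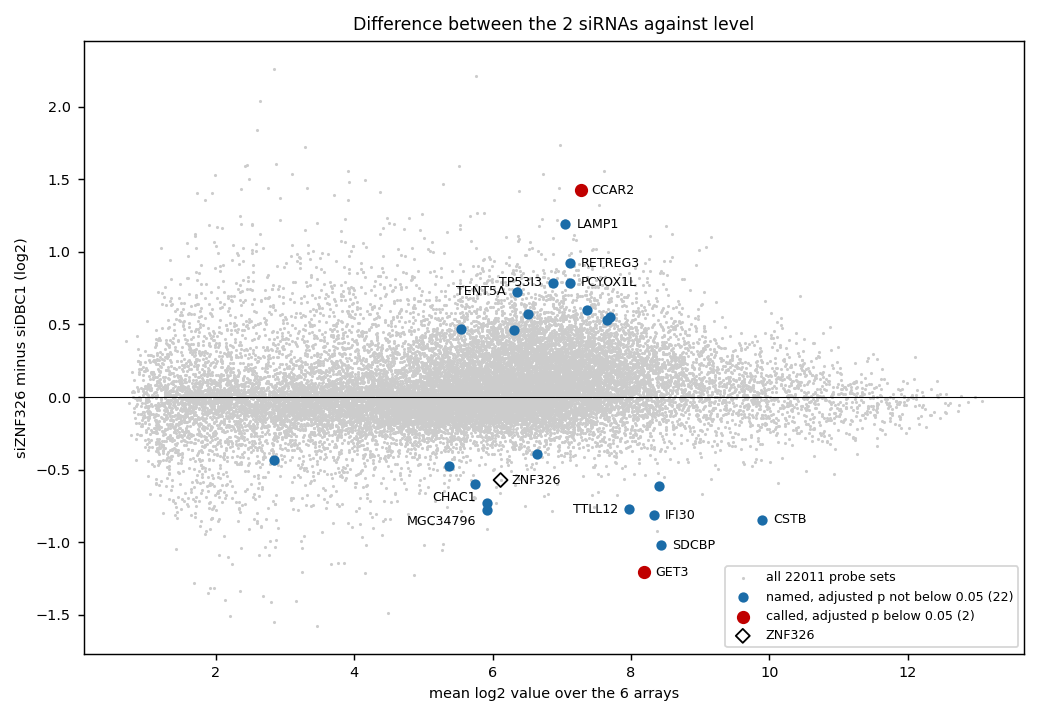
Each grey point is a probe set, with the mean log2 value over the 6 arrays on the horizontal axis and the log2 difference, siZNF326 minus siDBC1, on the vertical axis. CCAR2 at 1.42 and GET3 at -1.21 are the 2 that passed the test, and ZNF326, drawn as an open diamond, lies at -0.57.

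The targeted transcripts check the labels. CCAR2 measured 6.5, 6.54 and 6.65 in the siDBC1 arrays, 8.01, 7.95 and 7.99 in the siZNF326 arrays and 7.67, 7.67 and 7.84 in the siCTR arrays. The siDBC1 arrays were the low ones, and no array of one siRNA reached the values of the other. The means were 6.56 ± 0.08 (SD, n = 3) and 7.99 ± 0.03 (SD, n = 3), a difference of 1.42 (SE 0.08, 95% interval 1.24 to 1.61), or 2.68-fold, with a limma adjusted p of 0.00311. Without siZNF326 replicate 3 the adjusted p was 0.0511, and in a fit of the 6 arrays alone it was 0.0841, with the same difference.

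ZNF326 went against its label. Its probe set measured 6.12, 5.56 and 5.81 in the siZNF326 arrays, 6.24, 5.64 and 7.32 in the siDBC1 arrays and 5.25, 5.64 and 5.76 in the siCTR arrays. The 3 groups overlapped, and the high value was that of siDBC1 replicate 3. The siZNF326 mean of 5.83 ± 0.28 (SD, n = 3) was not below the siCTR mean of 5.55 ± 0.27 (SD, n = 3). The difference from siDBC1 was -0.57 (SE 0.39, 95% interval -1.48 to 0.34, limma adjusted p = 0.769). It was -0.11 without siDBC1 replicate 3 and -0.95 without siDBC1 replicate 2. No loss of the ZNF326 transcript was therefore seen in the arrays labelled siZNF326, and every direction below is that of arrays by label.

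GET3, the other gene that passed, measured 8.82, 8.70 and 8.86 in siDBC1, 7.71, 7.61 and 7.44 in siZNF326 and 8.29, 8.37 and 8.45 in siCTR. The siRNA groups lay on opposite sides of the control without overlap. The siDBC1 mean was 8.79 ± 0.09 (SD, n = 3) and the siZNF326 mean 7.59 ± 0.14 (SD, n = 3). GET3 was thus lower in siZNF326 by 2.31-fold, with a log2 difference of -1.21 (SE 0.10, 95% interval -1.43 to -0.98, limma adjusted p = 0.0219). The size depended little on any single array, with differences of -1.27 to -1.13 when each was left out. The call did, since the adjusted p was then 0.0741 to 0.257, and it was 0.468 in the fit of the 6 arrays alone. GET1, a membrane receptor for GET3, was looked up after its partner's values were seen. It lay the opposite way, at 8.34 in siDBC1 and 9.01 in siZNF326, a difference of 0.66 (SE 0.19, limma adjusted p = 0.608) that did not pass.

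The relatives and partners of the targeted proteins gave no called difference. SIRT1, the deacetylase bound by DBC1, differed by 0.28 (SE 0.25, 95% interval -0.29 to 0.85, limma adjusted p = 0.799). The value for CCAR1, a close relative of CCAR2, was 0.18 (SE 0.29, 95% interval -0.49 to 0.86, limma adjusted p = 0.876). The sign for CCAR1 turned to -0.07 without siDBC1 replicate 2 and to -0.06 without siZNF326 replicate 1. BRINP1, a different gene that shares the alias DBC1, was at 3.66 in all 3 siCTR arrays and differed by -0.11 (SE 0.08, limma adjusted p = 0.774). Of 15 measured genes in the list of SIRT1, CCAR2 and complex partners, 12 lay above 0 and 1, HDAC3, was separated. Despite the list's name, neither CCAR2 nor ZNF326 is among the 15. HDAC3, a histone deacetylase reported to bind DBC1, measured 8.39, 8.06 and 8.56 in siDBC1 and 8.90, 8.71 and 8.87 in siZNF326. The HDAC3 groups did not overlap, and its difference of 0.49 (limma adjusted p = 0.55) did not pass.

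The next genes in order of p, taken from separated genes to fill 12 names in each direction, did not pass. TENT5A, a cytoplasmic poly(A) polymerase, was the nearest among the higher genes. It measured 6.01, 5.92 and 6.04 in siDBC1, 6.81, 6.65 and 6.67 in siZNF326 and 6.19, 6.24 and 6.26 in siCTR. The siZNF326 arrays stood above the other 6, by a difference of 0.72 from siDBC1 (1.65-fold, limma adjusted p = 0.0788). LAMP1, a main glycoprotein of the lysosomal membrane, measured 6.38, 6.24 and 6.75 in siDBC1, 7.80, 7.66 and 7.49 in siZNF326 and 7.18 in each siCTR array. LAMP1 differed by 1.19, or 2.28-fold, with the control between the siRNAs (limma adjusted p = 0.156). RETREG3, a receptor for selective autophagy of the endoplasmic reticulum, measured 6.65, 6.44 and 6.90 in siDBC1 and 7.71, 7.59 and 7.46 in siZNF326. The siCTR values of 7.45, 7.45 and 7.67 overlapped those of siZNF326, so that the siDBC1 arrays were the ones apart (difference 0.92, limma adjusted p = 0.197).

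PCYOX1L, a relative of prenylcysteine oxidase, had the same layout. Its values were 6.65, 6.64 and 6.89 in siDBC1, 7.51, 7.48 and 7.54 in siZNF326 and 7.56, 7.42 and 7.79 in siCTR, a difference of 0.79 (limma adjusted p = 0.197). TP53I3, a p53-induced quinone oxidoreductase, was ordered otherwise, with siCTR lowest. It measured 5.78, 5.46 and 5.61 in siCTR, 6.46, 6.41 and 6.58 in siDBC1 and 7.39, 7.28 and 7.15 in siZNF326, and its difference was 0.79 (1.72-fold, limma adjusted p = 0.189). LSS, which makes lanosterol in cholesterol synthesis, measured 7.11, 6.91 and 7.17 in siDBC1, 7.79, 7.63 and 7.57 in siZNF326 and 7.24, 7.33 and 7.33 in siCTR. Here the siZNF326 arrays stood above all others, by 0.60 over siDBC1 (limma adjusted p = 0.249). NR2F1, an orphan nuclear receptor of neural development, did so as well, at 7.87, 7.94 and 7.94 against 7.43, 7.28 and 7.44 in siDBC1 and 7.49, 7.52 and 7.56 in siCTR (difference 0.53, limma adjusted p = 0.189). The 4 other higher genes differed by 0.46 to 0.57. They were YWHAG, a 14-3-3 protein, the transcription factor MEF2D, the pyruvate dehydrogenase phosphatase PDP1 and the antisense RNA RHPN1-AS1, whose signal and that of an overlapping transcript cannot be told apart here.

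**Figure D2:**
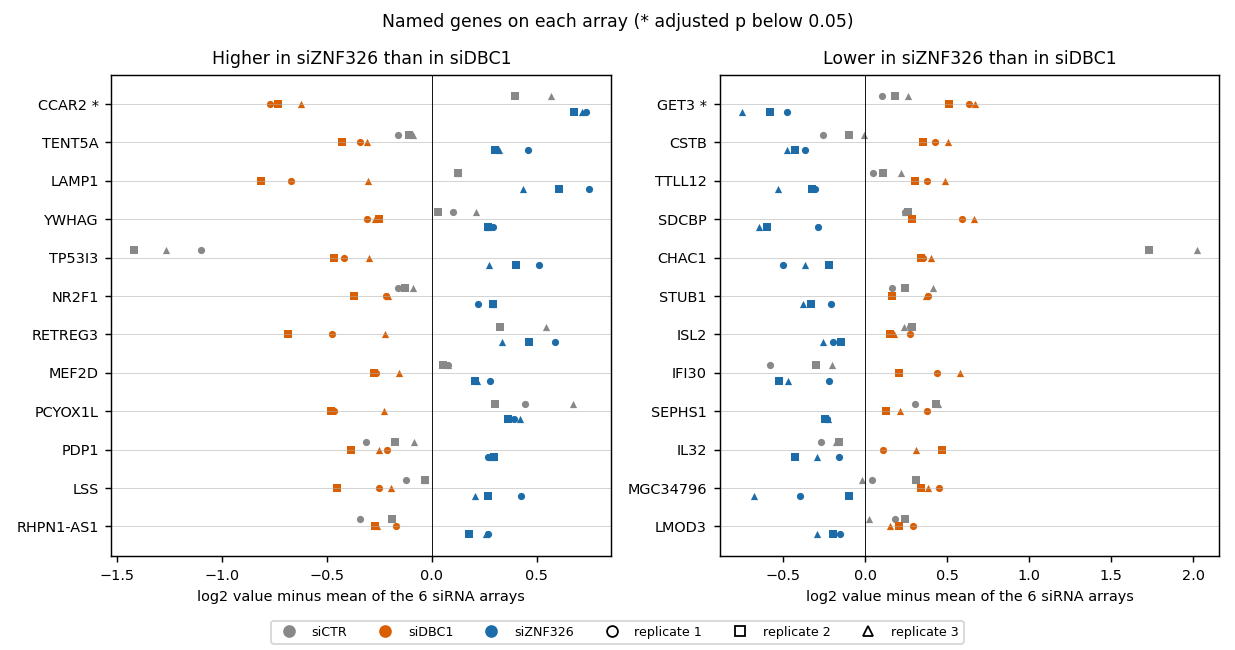
Each row is a gene and each point an array, drawn as the log2 value minus the mean of the 6 siRNA arrays, with colour for the siRNA and shape for the replicate. In all 24 rows the siDBC1 and siZNF326 points do not overlap, which is how the unmarked 22 were chosen; siCTR points of TP53I3 lie below and those of CHAC1 above both siRNAs.

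Among the lower genes, CSTB, an inhibitor of lysosomal cathepsins, came nearest to the threshold. It measured 10.32, 10.25 and 10.40 in siDBC1, 9.53, 9.47 and 9.42 in siZNF326 and 9.64, 9.80 and 9.89 in siCTR. The siDBC1 arrays were above the control and the siZNF326 arrays below it, a difference of -0.85 (1.80-fold, limma adjusted p = 0.0788). SDCBP, the scaffold protein syntenin, measured 9.03, 8.72 and 9.10 in siDBC1 and 8.15, 7.84 and 7.79 in siZNF326, with siCTR at 8.68, 8.70 and 8.68. Its difference was -1.02, or 2.03-fold (limma adjusted p = 0.169), and the control lay between the groups, just under the lowest siDBC1 array. IFI30, a lysosomal thiol reductase, was placed the other way, with siDBC1 apart. It measured 8.77, 8.54 and 8.91 in siDBC1, 8.11, 7.81 and 7.86 in siZNF326 and 7.75, 8.03 and 8.13 in siCTR (difference -0.81, limma adjusted p = 0.29).

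CHAC1, which degrades glutathione and is a late target of the integrated stress response, measured 6.27, 6.26 and 6.32 in siDBC1, 5.42, 5.70 and 5.55 in siZNF326 and 7.65, 7.65 and 7.94 in siCTR. Both siRNAs were below the control, and siZNF326 was the lower of them by a difference of -0.73 (SE 0.11, limma adjusted p = 0.204). STUB1, a ubiquitin ligase that works with HSP70, measured 8.79, 8.57 and 8.78 in siDBC1, 8.20, 8.08 and 8.03 in siZNF326 and 8.57, 8.65 and 8.82 in siCTR. The siZNF326 arrays were below the other 6, with a difference of -0.61 from siDBC1 (limma adjusted p = 0.249). TTLL12, of the tubulin tyrosine ligase family, differed by -0.77 (limma adjusted p = 0.164). The remaining 5 lower genes, ISL2, SEPHS1, IL32, MGC34796 and LMOD3, differed by -0.78 to -0.40. With the axis between arrays as a covariate 20 of the 24 named genes passed, with 179 probe sets called in all, 105 higher and 74 lower. The axis was taken from the spread within groups of these same values, so fitting it lowers the residual spread by construction. More calls are thus partly built in, and the 24 genes were chosen as separated. Without the 3 arrays at its ends no probe set passed, while CCAR2 differed by 1.47 and GET3 by -1.29. Quantile normalization called 18 probe sets higher and 10 lower, in place of 1 and 1.

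The control arrays place these differences. Over all probe sets the siCTR mean lay between the 2 siRNA means in 35.9%. Among separated probe sets it lay between them in 678 of 1146 that were higher in siZNF326 (59.2%) and 559 of 933 that were lower (59.9%). Separated probe sets were chosen for a gap between the siRNAs, and a wider gap takes in the control mean more often. The higher share is thus partly set by the choice, and so is that of the named genes below. Of the 24 named genes, 18 had siCTR between the siRNAs, 9 in each direction. In those genes the 2 siRNAs lay on opposite sides of the control mean. In the other 6 both siRNA means lay on the same side of it, and TP53I3 and CHAC1 were the 2 of these with the control farthest away. ZCCHC12, a zinc finger gene looked up after its values were seen, is of the same kind. Its means were 5.87 in siCTR, 7.17 in siDBC1 and 8.17 in siZNF326, and the difference between the siRNAs of 1.001 (SE 0.27, limma adjusted p = 0.6) did not pass.

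Gene lists were compared by counts of their measured members, with 1 probe set per gene. Over all 14232 genes, 8038 (56.5%) lay above 0, 804 (5.65%) were separated higher and 602 (4.23%) separated lower, with a median difference of 0.03. No member of any of the 26 lists passed the test, and CCAR2 and GET3 are in none of them. Each list's median was also taken on each array, as the median distance of its members from their mean over the 6 siRNA arrays. Many of these medians rested on siDBC1 replicate 2. Without it, 10 of the 20 list medians above 0 turned below 0, while all 6 below 0 stayed there. With the axis as a covariate 7 of the 20 did, and without the 3 arrays at its ends 3 did. Leaving out siDBC1 replicate 2 moved 24 of the 26 lists down, and the median of all probe sets from 0.024 to -0.013. Lists below 0 were thus largely set to stay there. Centring each array on its median and quantile normalization moved all 26 down, with medians of all probe sets at -0.053 and -0.032. A turn of sign in these settings is partly that common shift. The lists that turned without siDBC1 replicate 2 were those of mitosis, S phase, histones, core spliceosome, oxidative phosphorylation, heat shock, silencing machinery, complex partners, NRF2 and TGF-beta with Wnt. In bulk RNA a different share of cells and a different amount of RNA per cell cannot be told apart.

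**Figure D3:**
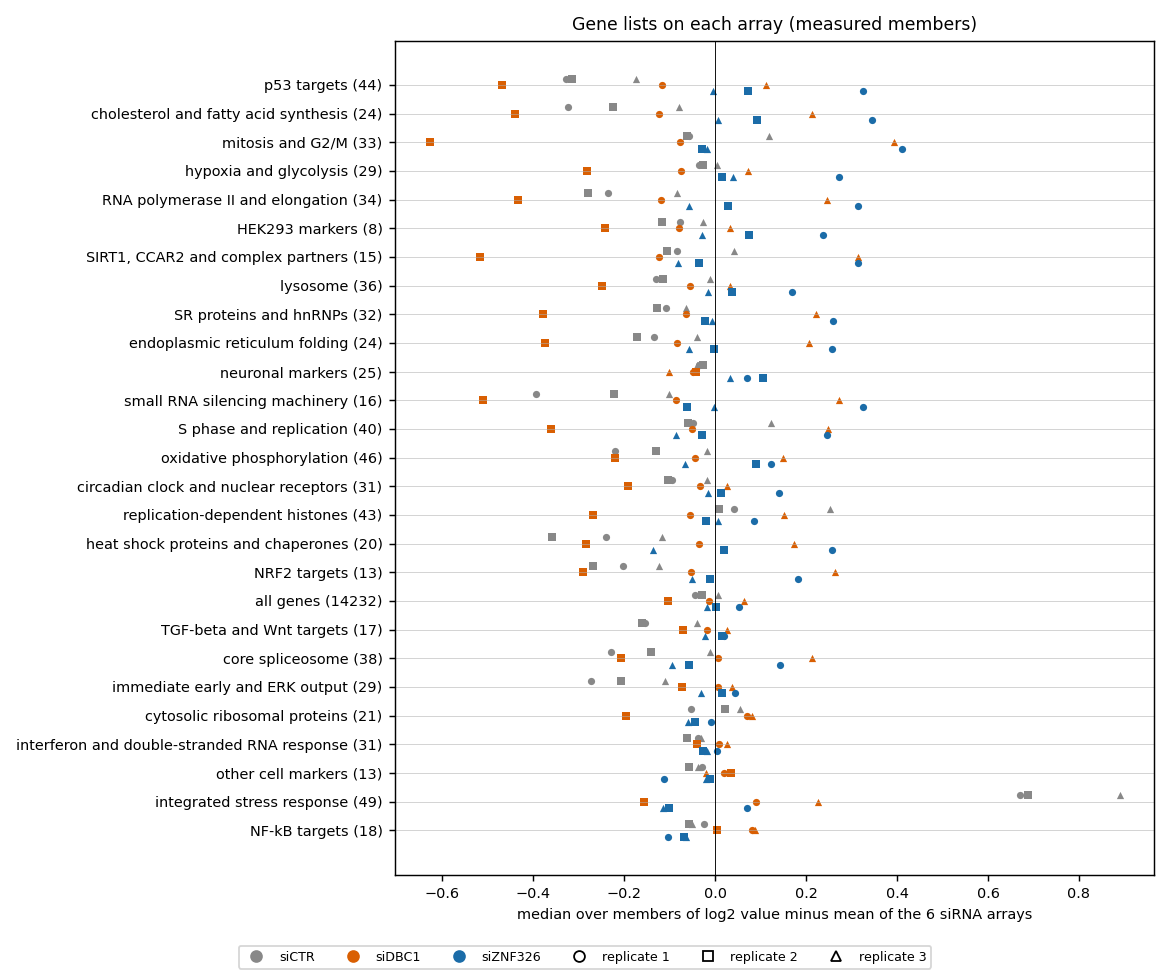
Each row is a gene list, with its number of measured members, and each point is the median over members on 1 array of the log2 value minus the mean of the 6 siRNA arrays. The siDBC1 points of most lists run from replicate 2 on the left to replicate 3 on the right and overlap the siZNF326 points; the neuronal and NF-kB rows do not overlap between the siRNAs.

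Targets of p53 lay higher in siZNF326 than in siDBC1 in 37 of 44 measured genes, with a median difference of 0.28, and 10 were separated higher and 1, SUSD6, lower. The p53 protein is a transcription factor activated by DNA damage that drives genes of arrest, repair and cell death. CDKN1A, the cyclin-dependent kinase inhibitor p21, measured 7.93, 7.84 and 7.98 in siDBC1, 8.72, 8.68 and 8.32 in siZNF326 and 7.16, 6.82 and 7.22 in siCTR. Its groups stood in the order siCTR, siDBC1, siZNF326 without overlap, and the difference between the siRNAs was 0.66 (limma adjusted p = 0.414). SESN1, a stress sensor that restrains growth signalling, measured 7.15, 6.57 and 7.46 in siDBC1 and 7.94, 7.58 and 7.81 in siZNF326, a difference of 0.72 (limma adjusted p = 0.624). MDM2, the ubiquitin ligase that degrades p53, measured 8.40, 7.97 and 8.73 in siDBC1 and 9.58, 9.11 and 8.84 in siZNF326, and was chosen after its values were seen (difference 0.81, limma adjusted p = 0.645). Neither SESN1 nor MDM2 overlapped between the siRNAs.

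By role, all 7 measured p53 targets of arrest, including CDKN1A, SESN1 and GADD45A, lay above 0, with a median of 0.28. All 5 of repair and nucleotide supply did so too, with a median of 0.47, and XPC, which recognises damaged DNA, was the separated one. Of 10 apoptosis genes 8 lay above 0, TP53I3 among them, and of 5 feedback regulators 3 did. TNFRSF10D, a decoy receptor for the death ligand TRAIL, differed by 0.45 (limma adjusted p = 0.623). The list as a whole did not keep the siRNAs apart array by array, since its medians were -0.12, -0.47 and 0.11 in siDBC1 and 0.33, 0.07 and -0.005 in siZNF326. The highest siDBC1 array, replicate 3, exceeded 2 siZNF326 arrays. The median difference of the list was 0.10 without siDBC1 replicate 2, and 0.16 both with the axis as a covariate and without the 3 arrays at its ends.

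Genes of the integrated stress response lay the other way. This pathway lowers general translation when amino acids run short or proteins misfold, and through the factor ATF4 induces transporters, biosynthetic enzymes and tRNA synthetases. Of 49 measured genes, 34 were lower in siZNF326 than in siDBC1, with a median of -0.10, and 10 were separated lower and 2 higher. The array medians of the list were 0.67, 0.69 and 0.89 in siCTR, 0.09, -0.16 and 0.23 in siDBC1 and 0.07, -0.10 and -0.11 in siZNF326. Both siRNAs were thus below the control, and their arrays overlapped each other. The list's median was -0.20 without siDBC1 replicate 2 and -0.04 without siDBC1 replicate 3. It was -0.17 with the axis as a covariate and -0.21 without the 3 arrays at its ends.

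The promoters of the stress list were searched for one sequence, the core TGATGNAA of the composite site bound by C/EBP and ATF factors. In the 250 bases before the start (RefSeq, GRCh38.p14), it occurred on either strand in 6 of 41 measured stress genes with an entry (14.6%) and in 870 of 27305 promoters in all (3.19%). The 3 windows below are those of the gene with the lowest difference, of ATF3, which was separated higher, and of ASNS, a standard target, and their capitals mark the match as it reads on the gene's strand. The match of CHAC1 is on the reverse strand.
CHAC1 chr15:40953221-40953470 (+): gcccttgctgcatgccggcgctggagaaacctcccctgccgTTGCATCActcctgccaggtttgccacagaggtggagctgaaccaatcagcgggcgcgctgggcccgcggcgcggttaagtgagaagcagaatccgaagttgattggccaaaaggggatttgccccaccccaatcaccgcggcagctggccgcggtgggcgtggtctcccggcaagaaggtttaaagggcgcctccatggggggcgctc
ATF3 chr1:212565157-212565406 (+): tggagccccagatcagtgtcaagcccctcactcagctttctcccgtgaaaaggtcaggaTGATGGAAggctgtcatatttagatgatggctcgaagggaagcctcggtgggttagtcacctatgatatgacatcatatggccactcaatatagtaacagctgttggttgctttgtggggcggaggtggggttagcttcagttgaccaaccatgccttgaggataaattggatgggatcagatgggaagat
ASNS chr7:97872409-97872658 (-): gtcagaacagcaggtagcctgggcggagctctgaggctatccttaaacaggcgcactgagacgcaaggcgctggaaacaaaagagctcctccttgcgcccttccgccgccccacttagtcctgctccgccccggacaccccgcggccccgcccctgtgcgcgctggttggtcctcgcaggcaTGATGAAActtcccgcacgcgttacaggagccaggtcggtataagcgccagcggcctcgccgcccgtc
The 3 genes did not share a direction, at -0.73 for CHAC1, 0.20 for ATF3 and -0.20 for ASNS. The median difference was -0.17 over the 6 genes with a match and -0.02 over the 35 without, and 1 of the 10 genes separated lower, CHAC1, had one. A match describes these letters only.

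The transporters of the stress list held the most separated members, 4 of 10, with a median of -0.28. SLC7A5, which imports large neutral amino acids, measured 7.90, 7.68 and 7.95 in siDBC1, 7.48, 7.28 and 7.15 in siZNF326 and 8.63, 8.79 and 9.0 in siCTR. Its difference was -0.54 (limma adjusted p = 0.49), with the 3 groups apart and siCTR on top. SLC6A9, a glycine transporter, repeated that order with 6.89, 6.93 and 6.93 in siDBC1, 6.51, 6.59 and 6.63 in siZNF326 and 7.45, 7.43 and 7.60 in siCTR (difference -0.34, limma adjusted p = 0.414). SLC43A1, another carrier of large neutral amino acids, measured 6.86, 6.81 and 6.87 in siDBC1, 6.63, 6.24 and 6.46 in siZNF326 and 7.48, 7.66 and 7.85 in siCTR, and again the groups did not overlap (difference -0.40, limma adjusted p = 0.631). The glutamine carrier SLC1A5 was the fourth. Amino acid enzymes lay below 0 in 8 of 10, with a median of -0.20 and with CHAC1 and PCK2 separated. Of 11 tRNA synthetases 7 lay below 0, at a median of -0.07, and MARS1 was separated. The factors themselves went both ways, from -0.39 to 0.36 around a median of -0.01, with CEBPB and JDP2 separated lower and ATF3 higher. Of the 2 separated higher, VEGFA measured 6.28, 6.05 and 6.42 in siDBC1 and 6.46, 6.44 and 6.58 in siZNF326, and ATF3 differed by 0.20.

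**Figure D4:**
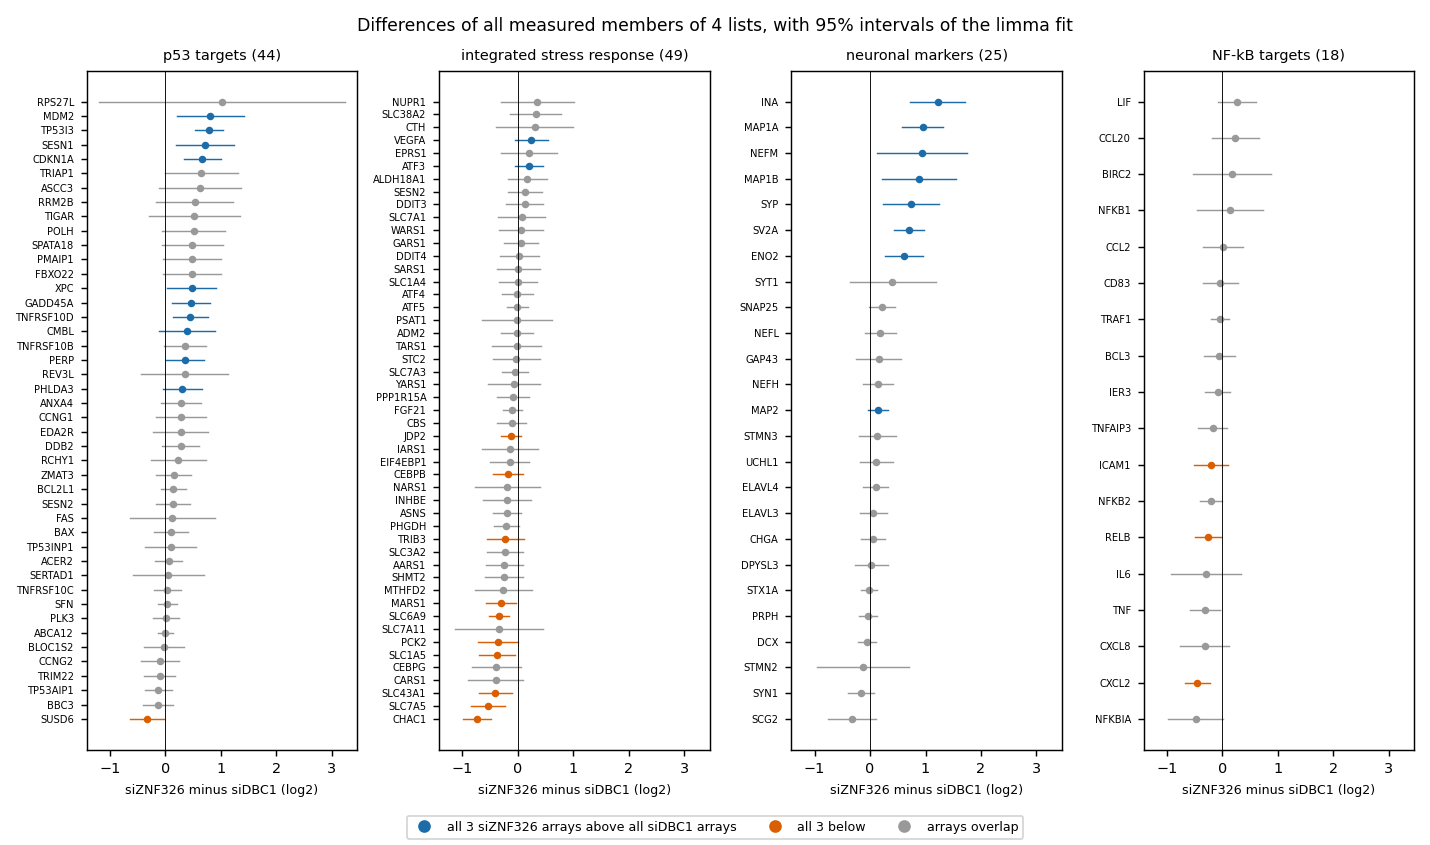
Every measured member of 4 lists is drawn with its log2 difference, siZNF326 minus siDBC1, and the 95% interval of the limma fit; colour marks members whose 3 arrays of one siRNA all lay beyond the 3 of the other. No member passed the test: p53 targets lie mostly right of 0 (37 of 44), stress genes mostly left (34 of 49), neuronal markers hold 8 and NF-kB targets 3 separated members, each list in 1 direction.

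Neuronal markers, which HEK293 cells are known to express in part, held 8 separated members of 25, all higher in siZNF326, with 19 of 25 above 0 and a median of 0.14. INA, the neurofilament protein internexin, measured 6.27, 5.92 and 6.77 in siDBC1, 7.70, 7.45 and 7.47 in siZNF326 and 6.44, 6.51 and 6.81 in siCTR. The siZNF326 arrays were above all 6 others, with a difference of 1.22 (limma adjusted p = 0.262). MAP1A, a microtubule-associated protein, measured 5.39, 5.20 and 5.62 in siDBC1, 6.60, 6.18 and 6.27 in siZNF326 and 4.76, 4.80 and 5.09 in siCTR, so that both siRNAs were above the control (difference 0.95, limma adjusted p = 0.249). SV2A, a synaptic vesicle glycoprotein, measured 7.05, 6.79 and 7.15 in siDBC1 and 7.82, 7.62 and 7.66 in siZNF326, against 6.86, 6.64 and 6.85 in siCTR (difference 0.70, limma adjusted p = 0.249). The siZNF326 arrays were again the high ones. ENO2, the neuronal enolase, measured 8.11, 7.67 and 8.20 in siDBC1, 8.75, 8.62 and 8.44 in siZNF326 and 8.34, 8.35 and 8.37 in siCTR (difference 0.61, limma adjusted p = 0.465), with the control between.

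The other 4 separated neuronal genes were NEFM, MAP1B, SYP and MAP2. The neurofilament NEFM spread most between arrays, at 6.58, 6.11 and 7.18 in siDBC1, 8.17, 7.24 and 7.26 in siZNF326 and 5.46, 6.02 and 6.05 in siCTR (difference 0.93, limma adjusted p = 0.657). Its lowest siZNF326 array was just above its highest siDBC1 array. Unlike p53 targets, the neuronal list kept the siRNAs apart array by array in the deposited values. Its medians were -0.05, -0.04 and -0.10 in siDBC1 and 0.07, 0.11 and 0.03 in siZNF326. Its siCTR medians of -0.04, -0.03 and -0.04 lay with siDBC1. The list's median was 0.14 with the axis as a covariate too, and 0.06 with each array centred on its median. The medians by array are of deposited values. Arrays themselves had medians from 5.58 in siDBC1 replicate 2 to 5.9 in siZNF326 replicate 1. With each array's own median subtracted, siDBC1 replicate 2 lay above every siZNF326 array, so the groups did not stay apart. In the deposited values only this list and that of NF-kB targets, of the 26, kept the siRNAs apart, while 9.45% of all probe sets were separated.

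Targets of NF-kB, the factor of inflammatory gene expression, also kept the siRNAs apart array by array in the deposited values, in the other direction. The medians over 18 genes were 0.08, 0.00 and 0.09 in siDBC1, -0.10, -0.07 and -0.06 in siZNF326 and -0.02, -0.06 and -0.05 in siCTR, so that siDBC1 stood above both other groups. The list's median difference was -0.13, with 13 of 18 below 0 and 3 separated, all lower. CXCL2, a chemokine, measured 2.68, 2.76 and 2.71 in siDBC1 and 2.09, 2.29 and 2.40 in siZNF326 (difference -0.45, limma adjusted p = 0.393), values under the lower quartile of each array. RELB, a subunit of NF-kB, measured 6.26, 6.29 and 5.99 in siDBC1 and 5.90, 5.99 and 5.86 in siZNF326, where the groups touch at the printed precision (difference -0.26, limma adjusted p = 0.658). ICAM1, an adhesion molecule, was the third. TNF differed by -0.31 (limma adjusted p = 0.652).

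Lysosome genes held LAMP1 and 4 more genes separated higher among 36, with 1 lower, and 31 of the 36 lay above 0, at a median of 0.17. HEXA, a subunit of beta-hexosaminidase, measured 7.43, 7.34 and 7.68 in siDBC1 and 8.07, 7.76 and 7.74 in siZNF326, a small gap between the groups (difference 0.37, limma adjusted p = 0.645). TFE3, a factor that activates lysosomal genes, the protease CTSB and PSAP, which yields the saposins, were the others, and the lysosomal channel MCOLN1 was the one lower. With the axis as a covariate the median of the list was 0.05, and without siDBC1 replicate 2 it was 0.01.

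Genes of hypoxia and glycolysis were separated higher in 7 of 29 and lower in 2, with a median of 0.21. Of 11 hypoxia targets 10 lay above 0, with a median of 0.39. NDRG1, a stress gene induced by low oxygen, measured 8.50, 8.09 and 8.47 in siDBC1, 9.02, 8.82 and 8.76 in siZNF326 and 8.83, 8.95 and 8.83 in siCTR. It was the siDBC1 arrays that lay apart (difference 0.51, limma adjusted p = 0.518). ALDOC, an aldolase, differed by 0.40 (limma adjusted p = 0.645). ENO2 and VEGFA belong to this list as well as to those above. The list's median was 0.09 without siDBC1 replicate 2, 0.13 with the axis as a covariate and 0.10 without the 3 arrays at its ends.

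Cholesterol and fatty acid synthesis genes lay above 0 in 20 of 24, with a median of 0.23, and 4 were separated higher and 2 lower. STARD4, a carrier of cholesterol, measured 7.35, 6.59 and 7.46 in siDBC1, 8.0, 7.69 and 7.72 in siZNF326 and 7.41, 7.28 and 7.36 in siCTR (difference 0.67, limma adjusted p = 0.645). As with LSS, siZNF326 was above both other groups. Of 14 cholesterol enzymes 13 lay above 0, with a median of 0.19. FASN, the fatty acid synthase, was lower, at -0.31 (limma adjusted p = 0.666), and SREBF1, a factor that drives these genes, was the other one separated lower. Array medians of the list overlapped between the siRNAs, and its median was 0.11 with the axis as a covariate and 0.09 without siDBC1 replicate 2.

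Clock genes and nuclear receptors were separated in 7 of 31, all higher, at a median of 0.08. With arrays centred that median was -0.0013, while the median of all probe sets was -0.053. Besides NR2F1, THRB, a thyroid hormone receptor, measured 6.10, 5.90 and 6.24 in siDBC1, 6.58, 6.49 and 6.48 in siZNF326 and 6.34 in each siCTR array (difference 0.44, limma adjusted p = 0.414). The control lay between the groups. BHLHE40, a repressor in the clock, differed by 0.69 (limma adjusted p = 0.435) and the receptor RORA by 0.45 (limma adjusted p = 0.593). CLOCK, NPAS2 and PPARD were the other separated genes.

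Immediate early genes of the ERK pathway split, with 4 of 29 separated higher and 2 lower and a median of -0.01. EGR1, an early zinc finger factor, measured 6.31, 6.26 and 6.31 in siDBC1, 6.61, 6.66 and 6.63 in siZNF326 and 6.08, 6.12 and 5.93 in siCTR. The replicates were close and the 3 groups apart, and the difference of 0.34 did not pass (limma adjusted p = 0.393). MYC, a growth regulator, measured 8.59, 8.15 and 8.69 in siDBC1, 8.14, 8.0 and 8.10 in siZNF326 and 8.72, 8.65 and 8.77 in siCTR. The siZNF326 arrays of MYC were the lowest, by -0.40 from siDBC1 (limma adjusted p = 0.645).

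The transcription and splicing machinery, with which the complex associates, held few separated genes. Of 24 elongation and pausing factors 23 lay above 0, at a median of 0.28, yet 1 was separated. That gene, ELOB, the elongin B subunit, measured 5.48, 5.35 and 5.43 in siDBC1, 6.46, 5.97 and 5.93 in siZNF326 and 5.75, 5.79 and 5.81 in siCTR (difference 0.70, limma adjusted p = 0.349). Among 10 subunits of RNA polymerase II, POLR2L was separated lower, at 7.82, 7.91 and 7.92 against 7.54, 7.64 and 7.57 (difference -0.30, limma adjusted p = 0.608). Both siRNAs were above the POLR2L values of 6.89, 6.76 and 7.01 in siCTR. All 13 SR proteins, which bind splicing enhancers, lay above 0, with a median of 0.29, and none was separated. The core spliceosome lay above 0 in 20 of 38, with 2 separated lower and a median of 0.01, which turned to -0.11 with quantile normalization. The axis between arrays moves with these lists: with it as a covariate the median of RNA polymerase II and elongation genes was 0.05 in place of 0.20. That of SR proteins and hnRNPs was 0.15, and 0.03 with the covariate.

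Mitosis genes showed the same dependence. They lay above 0 in 28 of 33, with a median of 0.21, and none was separated higher. Their array medians were -0.08, -0.63 and 0.39 in siDBC1 and 0.41, -0.03 and -0.02 in siZNF326, so that the groups overlapped widely, and the median was 0.01 with the axis as a covariate and -0.04 without siDBC1 replicate 2. AURKB, the kinase of chromosome segregation, was separated lower, at 8.44, 8.37 and 8.38 in siDBC1 and 8.05, 8.15 and 8.10 in siZNF326 (difference -0.29, limma adjusted p = 0.657). In replication, CDT1, which licenses origins, was also separated lower. It measured 8.28, 8.13 and 8.20 in siDBC1, 7.90, 7.86 and 7.73 in siZNF326 and 8.25, 8.40 and 8.55 in siCTR (difference -0.37, limma adjusted p = 0.577). The S-phase list of 40 genes had 1 separated in each direction and a median of 0.11, which was -0.02 with quantile normalization. Replication-dependent histones had 3 of 43 separated, all higher (6.98%, near the 5.65% of all genes). H2BC11 was one, at 4.72, 4.52 and 5.20 in siDBC1 and 5.68, 5.62 and 5.82 in siZNF326 (difference 0.89, limma adjusted p = 0.377), and siCTR, at 4.80, 5.08 and 5.17, lay with siDBC1.

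Oxidative phosphorylation genes were separated higher in 3 of 46 (6.52%) and lower in 2 (4.35%), near the 5.65% and 4.23% of all genes. Their median of 0.09 was 0.02 with quantile normalization, 0.0019 with the axis as a covariate and -0.02 without siDBC1 replicate 2. NDUFV1, the subunit of complex I that takes electrons from NADH, measured 9.42, 9.35 and 9.43 in siDBC1, 9.06, 9.05 and 8.96 in siZNF326 and 9.37, 9.41 and 9.60 in siCTR. The siZNF326 arrays were below the rest (difference -0.38, limma adjusted p = 0.414). UQCRQ, a subunit of complex III, lay the other way, at 7.71, 7.49 and 8.01 against 8.23, 8.48 and 8.27 (difference 0.59, limma adjusted p = 0.529). HSPA2, an HSP70 protein, measured 7.49, 7.30 and 7.70 in siDBC1, 8.18, 7.98 and 7.83 in siZNF326 and 6.85, 6.97 and 7.03 in siCTR (difference 0.50, limma adjusted p = 0.55). It was the one chaperone of 20 separated higher, and 3 were lower. SKIL, an inhibitor of TGF-beta signalling, measured 5.91, 5.28 and 6.34 in siDBC1, 7.32, 6.60 and 6.88 in siZNF326 and 5.88, 5.99 and 6.17 in siCTR (difference 1.09, limma adjusted p = 0.542). SKIL was the one separated gene of 17 in its list.

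The remaining lists had at most 3 separated members in one direction. Endoplasmic reticulum folding genes lay above 0 in 21 of 24, with EDEM1, which marks misfolded proteins for degradation, separated and a list median of 0.14. That median was 0.04 with the axis as a covariate and 0.0043 without siDBC1 replicate 2. Of 31 interferon and double-stranded RNA response genes 11 lay above 0, with 2 separated each way and a median of -0.04. The silencing machinery, which siRNAs use, lay above 0 in 12 of 16, and TNRC6B, a partner of Argonaute, was separated higher at 0.48 (limma adjusted p = 0.684). Its list median of 0.14 turned to -0.0018 with quantile normalization. NRF2 targets had 1 of 13 separated, at a median of 0.04 that was -0.08 with quantile normalization. Cytosolic ribosomal proteins, of which many share probe sets with other symbols, had 3 of 21 separated lower, including RPS13 at -0.75 (limma adjusted p = 0.669).

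Markers of the cell line ranged in level. Over the 9 arrays KRT8 lay between 10.26 and 10.85, VIM between 9.03 and 9.77 and KRT18 between 8.37 and 8.61. NEFL lay between 8.15 and 8.83, CDH2 between 7.67 and 9.22 and NEFM between 5.46 and 8.17. PAX2, at 5.95 to 6.02, and LHX1, at 5.79 to 6.24, did not stand clear of markers of other cells. COL1A1, at 6.40 to 6.73, lay above both, and CDH1, at 5.88 to 6.75, overlapped both. Among 8 HEK293 markers, 5 lay above 0 and 2, NEFM and the kidney factor LHX1, were separated higher. Markers of other cells lay above 0 in 2 of 13, with 1 separated in each direction and a median of -0.09. Their array medians were 0.02, 0.03 and -0.02 in siDBC1 and -0.11, -0.01 and -0.02 in siZNF326. The 2 epithelial markers had the most negative differences, with overlapping arrays. EPCAM, at 5.60, 5.15 and 6.07 in siDBC1 and 5.27, 4.99 and 5.15 in siZNF326, differed by -0.47, and CDH1, at 6.52, 6.03 and 6.75 against 6.17, 5.91 and 5.88, by -0.45 (limma adjusted p = 0.734 and 0.678). LUM, a fibroblast gene, was separated higher by 0.68, within 2.96 to 4.15, and COL1A1 was separated lower, within 6.40 to 6.73. The blood genes PTPRC and CD3E and the endothelial PECAM1 were at most 1.78, 3.13 and 3.59, under the lower quartile of each array, which was 4.09 to 4.16. The blood gene CD14, at 4.61 to 5.05, and the endothelial VWF and CDH5, at 4.53 to 4.82 and 4.57 to 4.89, were above it, and HBB, at 3.97 to 4.26, lay around it. The part of these markers in the results above was not tested.

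The direction of the difference ran with signal level and with gene length, and both ran with the arrays at the ends of the axis. In 4 equal classes of mean level the median difference went from -0.02 in the lowest to 0.10 in the highest, and the share separated from 7% to 11.9%. In 10 classes of genomic span, from a median of 2.17 kb to one of 276 kb, the median difference went from -0.06 to 0.09. It was highest in class 9, at 0.12. The share separated higher was 3.52% in the shortest class and 6.76% in the longest, and the share separated lower was 7.68% and 1.27%. In the longest class the array medians were -0.04, -0.28 and 0.12 in siDBC1 and 0.18, 0.00 and -0.01 in siZNF326. The groups overlapped there, and siDBC1 replicate 2 was the lowest array. Its part in the pattern was not tested.

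**Figure D5:**
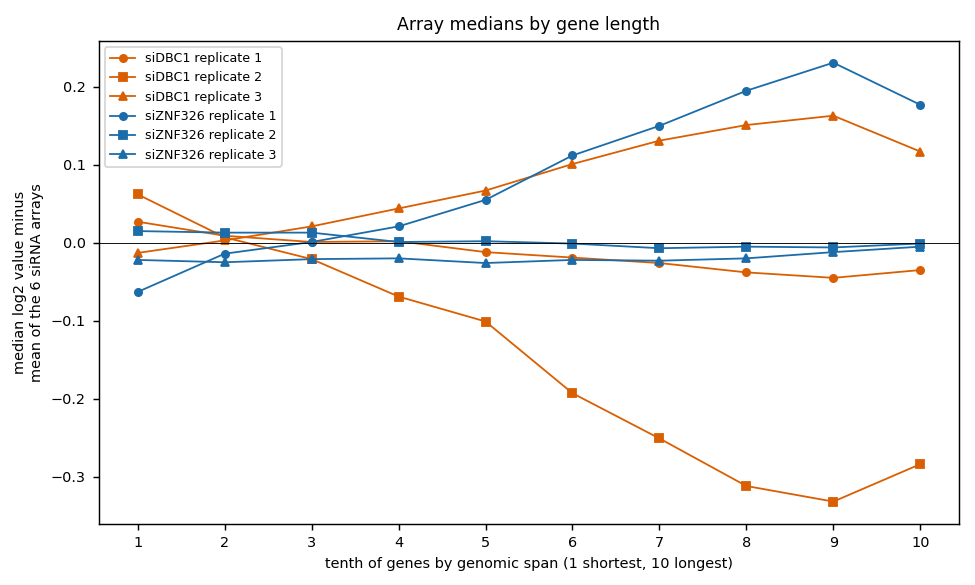
The horizontal axis gives 10 equal classes of genes by genomic span, from the shortest to the longest, and the vertical axis the median log2 value of each array minus the mean of the 6 siRNA arrays. The lines fan out up to class 9, where siDBC1 replicate 2 reaches -0.33 and siZNF326 replicate 1 0.23. They lie closer in the longest class, at -0.28 and 0.18, and siDBC1 replicate 3 follows siZNF326 replicate 1.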

How the data were processed

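Affymetrix whole-transcript arrays were hybridised with RNA of 3 groups of 3 arrays. The deposited values are log2 levels per probe set, made by the authors with RMA on hg18, per the submitters' processing notes; the version is not given in the sources used here. They were used as deposited. Of 22011 probe sets, 14432 have 1 gene symbol in the platform annotation, 2408 several and 5171 none; 14404 matched a current RefSeq entry (GRCh38.p14), and no symbol changed. For lists, the probe set with the highest mean stood for a symbol, and genes with several symbols on their probe set are not named.

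A linear model over the 9 arrays gave siZNF326 minus siDBC1 with limma 3.58.1 in R 4.3.3 (lmFit, eBayes, 6 residual degrees of freedom, two-sided, Benjamini-Hochberg over all probe sets, call at 0.05), tested on simulated data. The control arrays enter the spread only. Genes were named by rule: 5 targeted or related genes, up to 12 per direction, and up to 4 per list by smallest p. GET1, MDM2 and ZCCHC12 lie outside the rule and are marked where they appear. Further list members, named because they were separated or as examples, also lie outside it and are not marked. They were chosen with their values seen. Members and lists were chosen with earlier results of these data known. Gene lists are described by counts and medians with no test. Alternatives were other fits, scalings, filters and omissions. The number of arrays limits precision. The labels name independent experiments and not cultures, so p-values measure the spread between these samples.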

Additional observations from a re-analysis of the deposited data

How the results depend on the processing

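The direction of the 24 genes named by it was fixed by their choice as separated genes, so omissions could not turn it and it is no sign of stability. The counts of calls did not hold. Against 2 called probe sets, none passed in a fit of the 6 arrays alone (unadjusted p below 0.05 in 1118), with CCAR2 at 1.42 and GET3 at -1.21 and limma adjusted p of 0.0841 and 0.468; probe sets with 1 symbol gave 4, arrays centred on their medians 9, quantile normalization 28 and the array axis as a covariate 179. Of those 179, 116 were separated in the deposited values. The axis came from the spread within groups of these same arrays, so its larger count is partly built in. Without the 3 arrays at the ends of the axis the count was 0 (unadjusted 1887), with CCAR2 at 1.47 and GET3 at -1.29; the lone siDBC1 array is then assumed to vary like the other groups. The filter and the trended prior gave 2 each. The replicate block also gave 0 calls (unadjusted 1769), with CCAR2 at 1.42 (limma adjusted p = 0.0576) and GET3 at -1.21 (limma adjusted p = 0.237). The labels share replicate numbers, and the residual correlations of same-numbered arrays were -0.11, 0.40 and -0.30. Such few values, with opposite signs, cannot decide whether same-numbered arrays came from a shared experiment.

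Leaving out each array gave 0 to 1 calls (0 without siZNF326 replicate 3), CCAR2 at 1.39 to 1.47 and called in 8 of 9 omissions, GET3 at -1.27 to -1.13 and called in 0 of 9, and ZNF326 at -0.95 to -0.11. Unadjusted p below 0.05 went from 976, without siZNF326 replicate 1, to 4188, without siDBC1 replicate 3. The separated count was 2079 to 7601. Leaving out an array of either siRNA leaves 3 against 2, which separate more often. Without siDBC1 replicate 3, 4964 were higher and 2637 lower. The other omissions from these groups gave 1548 to 2004 higher and 1436 to 2042 lower. List medians were 0.10 to 0.45 for p53 targets, -0.20 to -0.04 for the stress response, 0.094 to 0.188 for neuronal markers and -0.15 to -0.11 for NF-kB targets. CCAR1 turned sign without siDBC1 replicate 2 (-0.066), without siZNF326 replicate 1 (-0.057), with the axis (-0.046) and without the 3 arrays (-0.022). Neuronal markers moved to 0.097 (quantile), 0.062 (centred) and 0.079 (without the 3 arrays), and NF-kB targets to -0.21 under both scalings. Centring moves every difference by the same amount, and the median of all probe sets went from 0.024 to -0.053 with it. Except for that shift and for the number of arrays, the cause of these changes was not tested. Array weights were not usable because limma's estimate did not converge.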
